A study of Danio rerio with 12 samples.

Results

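Heparan sulfate proteoglycans and the enzymes that build and trim their chains were followed here through 38 zebrafish genes, out of 20484 genes that the array platform names. A gene was taken when the single platform symbol of a probe set (a group of probes read as 1 value) began as a glypican, a syndecan, an exostosin or exostosin-like gene, an N-deacetylase/N-sulfotransferase, the glucuronyl C5-epimerase, a 2-O-, 6-O- or 3-O-sulfotransferase or a 6-O-endosulfatase. The 38 genes had 55 probe sets, and each gene was read through the probe set with the highest mean over the 12 arrays (12 of the genes had more than 1 probe set). They comprised 7 glypicans, 3 syndecans, 3 chain polymerases, 2 exostosin-like genes, 4 N-deacetylase/N-sulfotransferases, 2 epimerases, 2 2-O-sulfotransferases, 4 6-O-sulfotransferases, 8 3-O-sulfotransferases and 3 endosulfatases. No probe set bore *ext1b*, *gpc5b*, *gpc5c*, *gpc6a*, *hs6st1a* or *ndst1b* as its single platform symbol, and these genes were not analysed here as members.

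RNA was measured on 12 arrays, 3 for each of 4 groups. Transgenic embryos carried Tg(hsp70:HA-dmrt2a), in which the heat-inducible hsp70 promoter, which is not restricted to a tissue, drives an HA-tagged Dmrt2a, a DM-domain transcription factor. These embryos came from outcrosses of homozygous carriers, and the construct also holds CFP under a γ-crystallin promoter, a lens marker. Control embryos were wildtype, and the lines shared a Tubingen background. Both genotypes were raised at 28 °C, received the same heat-shock of 30 min at 39 °C at bud-stage, went back to 28 °C and were microdissected from 2 h after the heat-shock, at the 3 to 4 somite stage. Region 1 held the somites with the lateral and ventral tissue beside them, and Region 2 held the tailbud with the left-right organiser (LRO). The 4 groups were therefore Region 1 transgenic, Region 1 control, Region 2 transgenic and Region 2 control, and each array read the RNA of 1 pool of 100 pieces. The transgenic line was kept from fish with a single transgene copy. The heat exposure was shared by all 4 groups. Wildtype embryos without heat-shock were not part of the comparison, so whether the response to heat was equal between groups was not tested. The replicates of a group were described in the methods as biological, so the p-values measure the spread between pools. In pieces of mixed tissue, fewer cells of a type and less RNA per cell cannot be told apart.

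Heparan sulfate is a long sugar chain carried on core proteins at the cell surface and in the matrix. Glypicans are held to the membrane by a lipid anchor, while syndecans span it. The chain is polymerised in the Golgi by Ext1 and Ext2, and it is then edited in order: Ndst enzymes replace acetyl with sulfate on glucosamine, the epimerase Glce turns glucuronic into iduronic acid, and the 2-O-, 6-O- and 3-O-sulfotransferases add further sulfates. Outside the cell, Sulf1 and Sulf2 remove some of the 6-O-sulfates. The pattern of sulfates decides which growth factors and morphogens (Fgf, Wnt, Hedgehog, Bmp) a chain holds. In zebrafish, *gpc4* is the gene of the *knypek* mutant, in which gastrula cells fail to elongate and converge properly through non-canonical Wnt signalling.

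The deposited values are log2 signals, on which a difference of 1 stands for a doubling. Array medians ran from 3.47 to 3.49 for Region 1 and from 3.29 to 3.32 for Region 2. The targeted gene *dmrt2a* rose in Region 2 from 7.37 ± 0.0422 to 8.76 ± 0.0703 (SD, n = 3; limma adjusted p = 0.00352), and in Region 1 it stood at 8.39 ± 0.0559 in controls and 8.74 ± 0.00779 in transgenic pieces (limma adjusted p = 0.0991). Of the markers of the labelled regions, 7 of 8 somite and muscle genes were higher in Region 1 controls and 7 of 7 measured tailbud genes were higher in Region 2 controls. The remaining somite and muscle gene, *myf5*, was higher in Region 2 controls (Region 1 minus Region 2 -1.77, limma adjusted p = 9.18e-09). Among all named genes, 26.0% were higher in Region 1 controls and 11.7% in Region 2 controls. Of 4 left-right organiser markers, *dand5* was higher in Region 2 controls, *foxj1a* and *sox17* were higher in Region 1 controls and *spaw* did not pass, so this list did not mark Region 2 as a whole. Some genes of the marker lists also moved with the transgene. In Region 1, 1 of 5 neural markers fell (*her3*, -3.35; list means of 7.77 to 7.79 on control and 6.90 to 6.93 on transgenic arrays, list median difference -0.37). So did 1 of 4 heart and pharynx markers (*tbx1*, -1.80; 6.44 to 6.55 and 5.83 to 5.87, list median difference -0.36). In that list *nkx2.5*, *gata5* and *hand2* differed by -0.07, -0.16 and -0.56 without passing. Of the blood and endothelium markers, 2 of 5 fell (*etsrp* and *tal1*), although the list median difference was 0.098. The list means were 5.42 to 5.55 on control and 5.08 to 5.13 on transgenic arrays. In that list *lmo2*, *gata1a* and *fli1* ran the other way, by 0.20, 0.41 and 0.10, without passing. Of the tailbud markers, 3 of 7 rose (6.49 to 6.54 and 6.71 to 6.83). Over all named genes, 0.64% fell and 0.308% rose in Region 1. Among the other tailbud markers in Region 1, *wnt3a* and *fgf8a* ran the other way, by -0.56 and -0.28, without passing. In Region 2, 2 of 5 blood and endothelium markers fell (6.55 to 6.62 on control and 5.63 to 5.70 on transgenic arrays, list median difference -0.41). These were *etsrp* (-2.99) and *tal1* (-1.30), while *lmo2*, *fli1* and *gata1a* differed by -0.41, -0.19 and 0.22 without passing. Also lower there were 2 of 4 heart and pharynx markers (*hand2* and *gata5*), 1 of 5 neural (*her3*) and 1 of 4 notochord markers (*tbxtb*). The list median differences were -0.43, -0.24 and -0.12. Without passing, *tbx1* and *nkx2.5* differed by -0.30 and -0.05, and the other neural markers by -0.38 to -0.0009. The notochord markers *noto*, *shha* and *col2a1a* differed by -0.25, 0.02 and 0.13, also without passing. Of all named genes, 0.874% fell in Region 2. Of 8 somite and muscle markers, 2 fell in Region 2 (*myod1* and *myf5*), although the list median difference was 0.106 and *ripply1* differed by 0.58 without passing. The part of these lists in the results below was not tested.

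In Region 1, 3 of the 38 members fell in transgenic pieces and none rose. They were *gpc4*, the glypican described above, and *hs3st3b1a* and *hs3st3b1b*, a pair of paralogs that encode 3-O-sulfotransferases, the enzymes of the last and least frequent sulfate. The falls were of -1.13, -1.42 and -1.40 on the log2 scale. Over all named genes, 0.64% fell and 0.308% rose by the same test, limma with a Benjamini-Hochberg adjusted p under 0.05. The members were chosen with the fall of *gpc4* and *hs3st3b1b* in these arrays known, so it is not independent of that choice.

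*gpc4* (probe set 13304516) read 8.59, 8.67 and 8.63 in the Region 1 controls and 7.50, 7.50 and 7.50 in the transgenic pieces. The groups were far apart, and the difference was -1.13 (SE 0.0611, 95% interval -1.28 to -0.98), a fold change of -2.19 (limma adjusted p = 0.003). A second *gpc4* probe set, not used to represent the gene, read 8.46 ± 0.0234 in controls and 7.38 ± 0.0727 in transgenic pieces (SD, n = 3), a difference of -1.08 (limma adjusted p = 0.00473). Both probe sets thus gave the fall. In the GRCz12tu assembly *gpc4* lies on chromosome 14 between *hs6st2* and *gpc3*, with 0 annotated genes between them, and neither neighbour passed the test in Region 1. *hs6st2*, a 6-O-sulfotransferase gene, differed by -0.16 (limma adjusted p = 0.537) and *gpc3*, a glypican gene whose human counterpart is mutated in an overgrowth syndrome, by 0.09 (limma adjusted p = 0.75).

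*hs3st3b1b* (probe set 12987474) read 8.55, 8.57 and 8.55 in the Region 1 controls and 7.07, 7.13 and 7.27 in the transgenic pieces. The 2 groups did not overlap, and the difference was -1.40 (SE 0.0752, 95% interval -1.58 to -1.22), a fold change of -2.64 (limma adjusted p = 0.003). Its paralog *hs3st3b1a* (probe set 13170051) read 6.58, 6.66 and 6.77 in controls and 5.50, 5.12 and 5.13 in transgenic pieces. Here too every transgenic array was below every control array, with a difference of -1.42 (SE 0.122, 95% interval -1.71 to -1.13) and a fold change of -2.67 (limma adjusted p = 0.0156). Whether probes of one paralog also bind RNA of the other was not tested. With 1 array left out at a time, *gpc4* and *hs3st3b1b* passed in 6 of 6 fits, while *hs3st3b1a* passed only without Region 1 transgenic replicate 1, its highest transgenic array (adjusted p of 0.0233 to 0.0972 over the 6 fits).

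**Figure D1:**
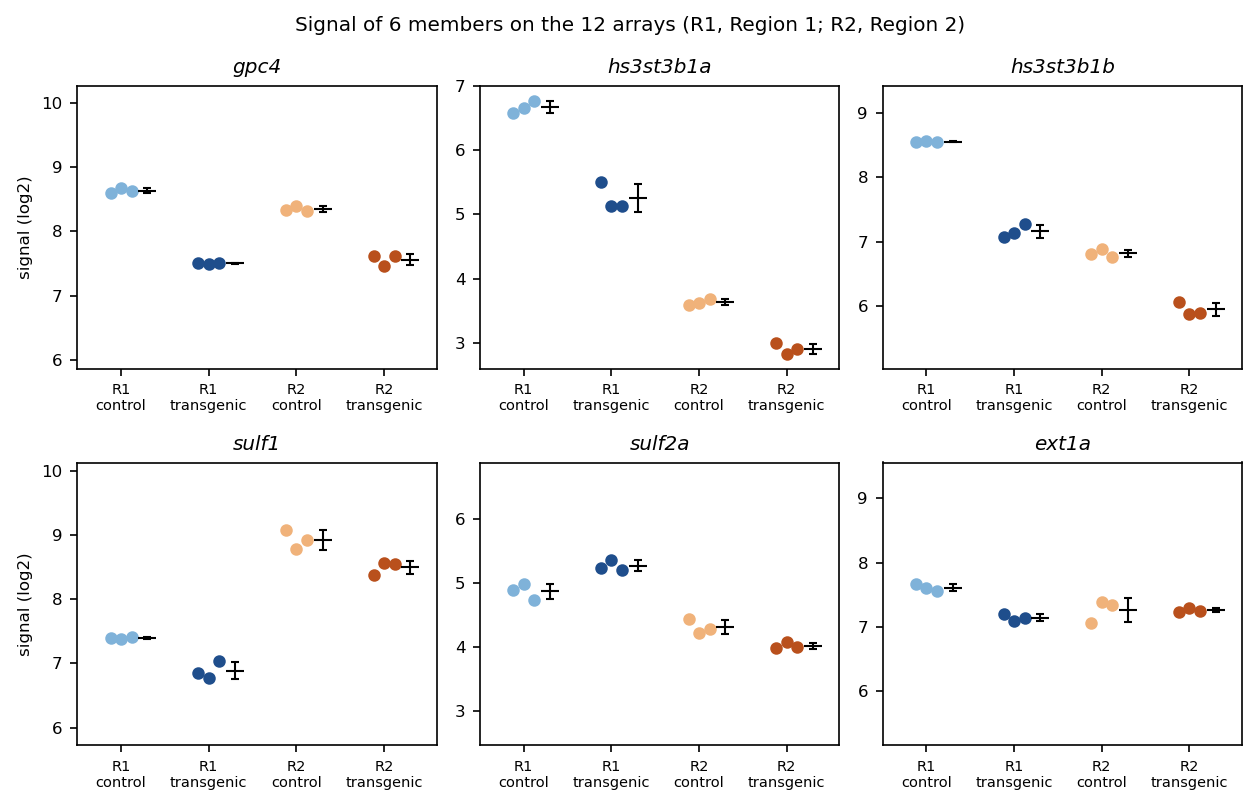
Log2 signal (y axis, the same span of log2 units in each panel) of 6 members on the 12 arrays, in the control and transgenic pieces of Region 1 and Region 2. Points are single arrays, and the black bar beside them is the mean with its SD (n = 3). Control arrays of *gpc4*, *hs3st3b1a* and *hs3st3b1b* lie above the transgenic arrays in both regions, while *sulf2a* is higher in transgenic pieces of Region 1 and lower in those of Region 2.

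The other 35 members did not pass in Region 1. Their differences had a median size of 0.0952 log2 units, and the largest bound of their 95% intervals was 0.71 in size. Of all 38, 34 differed by less than 0.5 in either direction, with a median of -0.03 against 0.012 over all named genes. Without adjustment, 8 members were lower and 3 were higher at p under 0.05 (limma), against 6.75% and 9.35% of all named genes. The unmoderated F test that the methods name called 3 lower and 0 higher after adjustment (*gpc4*, *hs3st3b1b* and *sdc4*). The share of all named genes called by that F test was not counted. The 3 transgenic arrays lay below the 3 control arrays for 13 members and above them for 5 (34.2% and 13.2% of the 38, against 11.2% and 15.4% of all named genes).

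Among the core proteins, none of the other 6 glypicans passed (differences from -0.32 for *gpc5a* to 0.09 for *gpc3*), nor did any of the 3 syndecans. *sdc4*, a syndecan of cell-matrix adhesion sites, came closest of the syndecans. It read 10.03, 9.98 and 10.004 in controls and 9.70, 9.73 and 9.70 in transgenic pieces, so the groups did not overlap, yet the difference of -0.30 (SE 0.0599) had a limma adjusted p of 0.126. Its second, dimmer probe set differed by -0.60 (limma adjusted p = 0.066). *sdc4* passed under 4 of 9 other settings and in 0 of 6 fits with an array left out. *sdc2*, needed for vessel sprouting in zebrafish, and *sdc3* differed by 0.08 and 0.06 (limma adjusted p = 0.703 and 0.746).

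Of the chain polymerases, *ext1a* had the smallest p among the members that did not pass. Its arrays read 7.66, 7.60 and 7.56 in controls and 7.20, 7.09 and 7.14 in transgenic pieces, again without overlap. The difference was -0.47 (SE 0.0677, 95% interval -0.63 to -0.30, limma adjusted p = 0.0561), and its second probe set gave -0.57 (limma adjusted p = 0.0653). *ext1a* passed under 5 of 9 other settings and in 0 of 6 fits with an array left out. The partner polymerase *ext2*, the gene of the zebrafish *dackel* mutant, differed by 0.03 (95% interval -0.14 to 0.19), and *extl3*, the gene of the *boxer* mutant, by 0.14 (95% interval -0.01 to 0.28).

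No enzyme that edits the chain passed in Region 1 outside the *hs3st3b1* pair. *ndst1a*, of the family that starts sulfation, read 4.64, 4.90 and 4.84 in controls and 5.19, 5.12 and 5.11 in transgenic pieces, a difference of 0.35 (SE 0.0865, limma adjusted p = 0.187), while the other 3 Ndst genes lay between -0.18 and -0.10. Neither epimerase gene and neither 2-O-sulfotransferase gene differed by more than 0.08 (family extremes of -0.06 and 0.08). The 4 6-O-sulfotransferases ranged from -0.19 to 0.23 with no limma adjusted p below 0.445. Among the 3-O-sulfotransferases, the fall of the *hs3st3b1* pair stood beside 0.41 for *hs3st1l2* (4.99, 5.26 and 5.01 in controls and 5.42, 5.65 and 5.42 in transgenic pieces, limma adjusted p = 0.207), and the remaining 5 lay between -0.23 and 0.10.

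The endosulfatases had differences of opposite sign in Region 1. *sulf1* read 7.40, 7.37 and 7.41 in controls and 6.85, 6.78 and 7.04 in transgenic pieces, every transgenic array being lower. The difference of -0.51 (SE 0.0847, 95% interval -0.71 to -0.30) had a limma adjusted p of 0.0801. Its other 2 probe sets differed by -0.58 (limma adjusted p = 0.0319, past the threshold) and -0.45 (limma adjusted p = 0.0572), so the call for *sulf1* depended on the probe set. Under 4 of 9 other settings *sulf1* passed, and in 0 of 6 fits with an array left out. *sulf2a* ran the other way, with 4.89, 4.98 and 4.73 in controls against 5.24, 5.36 and 5.20 in transgenic pieces, a difference of 0.40 (SE 0.089, limma adjusted p = 0.152). Its next brightest probe set differed by only 0.12, with overlapping groups (limma adjusted p = 0.751). *sulf2b* differed by -0.08 (95% interval -0.37 to 0.22).

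**Figure D2:**
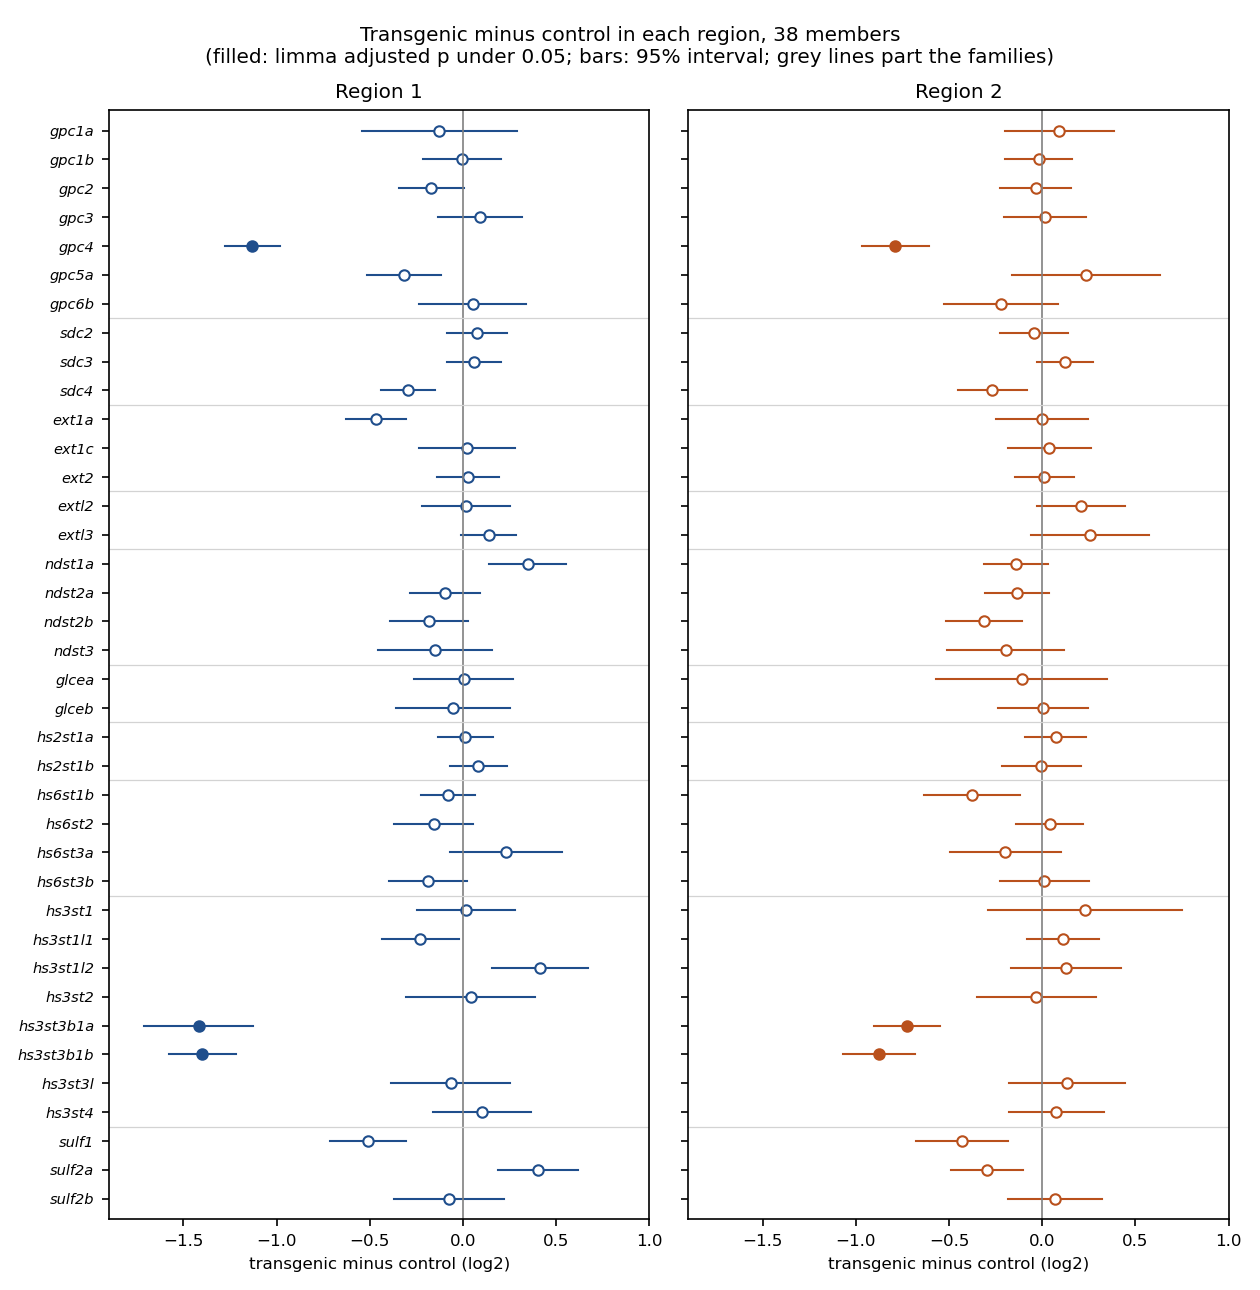
Transgenic minus control in log2 units (x axis) for each of the 38 members (y axis, ordered by family) in Region 1 and in Region 2. Filled circles have a limma adjusted p under 0.05, open circles do not, and bars are 95% intervals. The same 3 genes are filled in both regions, from -1.13 to -1.42 in Region 1 and from -0.73 to -0.87 in Region 2, and the other 35 range from -0.51 to 0.41 (Region 1) and from -0.43 to 0.25 (Region 2).

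In Region 2, the tailbud pieces, the same 3 members fell and none rose. The falls were of -0.79 for *gpc4*, -0.73 for *hs3st3b1a* and -0.87 for *hs3st3b1b* on the log2 scale. Of all named genes, 0.874% fell and 0.137% rose. These calls rested on all 6 arrays of the region: with any 1 of them left out, none of the 3 genes passed, while the differences stayed between -0.93 and -0.69.

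*gpc4* read 8.33, 8.39 and 8.32 in the Region 2 controls and 7.62, 7.46 and 7.61 in the transgenic pieces. The groups did not overlap, and the difference of -0.79 (SE 0.0757, 95% interval -0.97 to -0.61) was a fold change of -1.73 (limma adjusted p = 0.0185, and 0.0808 to 0.0978 with an array left out). The second probe set gave -0.81 (limma adjusted p = 0.0214). Its chromosomal neighbours again did not pass, with 0.04 for *hs6st2* and 0.02 for *gpc3* (limma adjusted p = 0.906 and 0.976).

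*hs3st3b1b* read 6.81, 6.88 and 6.76 in the Region 2 controls and 6.06, 5.88 and 5.89 in the transgenic pieces, all transgenic arrays being lower. The difference was -0.87 (SE 0.0809, 95% interval -1.07 to -0.68), a fold change of -1.83 (limma adjusted p = 0.0164, and 0.0581 to 0.104 with an array left out). *hs3st3b1a* read 3.59, 3.62 and 3.69 in controls and 2.99, 2.83 and 2.90 in transgenic pieces. The groups were apart, by -0.73 (SE 0.0742, 95% interval -0.90 to -0.55), a fold change of -1.65 (limma adjusted p = 0.0214, and 0.0778 to 0.12 with an array left out). Its control values lay just above the array medians of Region 2 and its transgenic values below them, so this gene was read at a dim signal in the tailbud. Whether the dim signal understates this fold change was not tested.

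Of the other 35 members, none passed in Region 2. The widest of their 95% intervals reached 0.75, and the median over the 38 was -0.0034 against -0.0009 over all named genes. Before adjustment 8 members were lower and 0 higher (limma p under 0.05), against 7.95% and 5.34% of all named genes. The F test of the methods called 0 in either direction after it, and its share over all named genes was not counted. The 3 transgenic arrays lay below the control arrays for 10 members and above them for 2 (26.3% and 5.26%, against 12.8% and 10.5% of all named genes). The unadjusted 8 were the 3 genes above with *sulf1*, *sulf2a*, *sdc4*, *ndst2b* and *hs6st1b*.

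*sulf1* read 9.08, 8.78 and 8.92 in the Region 2 controls and 8.38, 8.56 and 8.55 in the transgenic pieces, without overlap. The difference of -0.43 (SE 0.103, 95% interval -0.68 to -0.18) had a limma adjusted p of 0.198, and its other 2 probe sets gave -0.21 and -0.35. *sulf2a* read 4.44, 4.22 and 4.29 in controls and 3.99, 4.07 and 4.00 in transgenic pieces, a difference of -0.30 (SE 0.0814, limma adjusted p = 0.255). Thus *sulf1* was lower in transgenic pieces of both regions in these arrays, and *sulf2a* in those of Region 2, without passing the test.

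*sdc4* read 9.82, 9.71 and 9.65 in controls and 9.47, 9.40 and 9.51 in transgenic pieces of Region 2, a difference of -0.27 (SE 0.0766, limma adjusted p = 0.271). Its second, dimmer probe set differed by only -0.071 there, with overlapping groups (limma adjusted p = 0.859). The 6-O-sulfotransferase gene *hs6st1b* differed by -0.38 (95% interval -0.64 to -0.12) and *ndst2b* by -0.31 (95% interval -0.52 to -0.11). For *ext1a* the probe sets parted. The brighter one read 7.06, 7.39 and 7.34 in controls and 7.23, 7.30 and 7.25 in transgenic pieces, which overlap, with a difference of -0.0024 (95% interval -0.25 to 0.25), while the other gave -0.40 (limma adjusted p = 0.0911).

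No member passed the test of whether the transgenic effect differed between the regions, which takes the effect in Region 2 minus that in Region 1 over all 12 arrays. Over all named genes, 0.117% had a higher and 0.273% a lower effect in Region 2. The members had a median of 0.04 against -0.02 for all named genes, and limma put 6 higher and 4 lower before adjustment (p under 0.05), against 3.85% and 7.83% of all named genes. An unmoderated test of the same difference, which the study's methods do not describe, called 0 after adjustment. Its share over all named genes was not counted. The falls of the 3 genes were numerically smaller in Region 2, by 0.34 for *gpc4* (95% interval 0.15 to 0.54, limma adjusted p = 0.212), 0.69 for *hs3st3b1a* (95% interval 0.37 to 1.01, limma adjusted p = 0.118) and 0.52 for *hs3st3b1b* (95% interval 0.29 to 0.76, limma adjusted p = 0.105). Without Region 1 transgenic replicate 1 that of *hs3st3b1a* passed (0.82, adjusted p = 0.0356). The Region 2 signal of *hs3st3b1a* was dim, with means of 3.63 in controls and 2.91 in transgenic pieces. Its fall there may be understated, which was not tested.

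The member nearest the threshold was *sulf2a*, whose signal was higher in transgenic pieces of Region 1 and lower in those of Region 2 on every array. The difference of its effects was -0.70 (SE 0.118, 95% interval -0.96 to -0.44, limma adjusted p = 0.0529). It passed under 4 of 8 other settings, with adjusted p-values of 0.0236 to 0.344 over the 8, and in 0 of 12 fits with an array left out. Its next brightest probe set read 4.81 and 4.69 on average in transgenic and control pieces of Region 1 and 3.25 and 3.70 in those of Region 2, a difference of effects of -0.56 (limma adjusted p = 0.327). Beside the 3 genes above, the next members were *ndst1a* with -0.49 (95% interval -0.72 to -0.25, limma adjusted p = 0.139) and *ext1a* with 0.46 (95% interval 0.20 to 0.73, limma adjusted p = 0.227). The second *ext1a* probe set gave only 0.17 (limma adjusted p = 0.679).

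The control pieces show where the members are expressed without the transgene. As deposited, 23 of the 38 members differed between the regions, 17 of them higher in Region 1 and 6 higher in Region 2. Of all named genes 26.0% were higher in Region 1 and 11.7% lower, so differences between the regions were common on these arrays. The clearest were *hs3st3b1a* and *hs3st3b1b*, higher in Region 1, and *sulf1*, higher in Region 2. Region 1 controls were also higher for 4 of 4 heart and pharynx markers and 3 of 5 neural markers, with the other 2 neural markers lower. A higher signal in Region 1 therefore does not place a gene in the somites. The 3 arrays of Region 1 controls lay above those of Region 2 for 21 members and below for 6 (55.3% and 15.8%, against 36.9% and 18.1% of all named genes).

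These counts depend on how the regions are put on 1 scale. The median difference over all named genes was 0.085 as deposited (0.25 for the members), -0.097 with each array centred on its median and -0.0047 after quantile normalisation of the 12 arrays. The split of calls was then 6 higher and 7 lower with centring and 10 higher and 7 lower after quantile normalisation. The shares of all named genes called under these scalings were not counted, so neither split can be set against them. No called member changed its direction. Called with the same direction under all 3 scalings were 6 members higher in Region 1 (*hs3st3b1a*, *hs3st3b1b*, *ndst1a*, *sulf2a*, *hs6st1b* and *hs6st2*) and 6 higher in Region 2 (*sulf1*, *hs3st1l2*, *glcea*, *sdc3*, *gpc2* and *sdc2*). The second *sdc2* probe set did not pass as deposited.

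*hs3st3b1a* had the largest measured difference. Its Region 1 controls read 6.58, 6.66 and 6.77 and its Region 2 controls 3.59, 3.62 and 3.69, a difference of 3.04 (SE 0.102, limma adjusted p = 6.74e-09), or 2.85 after centring. Its Region 2 signal was dim and no background level was measured here, so no fold is given and the difference may be understated. For *hs3st3b1b* the difference was 1.74 (SE 0.0741, fold change 3.34, limma adjusted p = 4.17e-08), with Region 1 controls from 8.55 to 8.57 and Region 2 controls from 6.76 to 6.88. The 2 genes that fell most with the transgene in Region 1 were also the members with the largest excess in the Region 1 controls. Both comparisons use the same Region 1 control arrays, so they are not independent. *gpc4*, at 8.63 ± 0.0407 and 8.35 ± 0.0393 (SD, n = 3), was close to even between the regions. Its difference of 0.28 (limma adjusted p = 0.0065) was 0.10 after centring and did not pass there.

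Also higher in Region 1, *ndst1a* read 4.64, 4.90 and 4.84 in Region 1 controls and 3.91, 3.90 and 3.84 in Region 2 controls. The difference was 0.91 (SE 0.076, limma adjusted p = 9.31e-06, 0.73 after centring). *sulf2a* stood at 4.89, 4.98 and 4.73 against 4.44, 4.22 and 4.29, a difference of 0.55 (SE 0.0833, limma adjusted p = 0.000701, 0.37 after centring). Neither gene's arrays overlapped between the regions. The 6-O-sulfotransferases *hs6st1b* and *hs6st2* were higher in Region 1 by 0.43 and 0.45.

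Higher in Region 2, *sulf1* had Region 1 controls of 7.40, 7.37 and 7.41 and Region 2 controls of 9.08, 8.78 and 8.92. The difference was -1.53 (SE 0.0944, fold change -2.89, limma adjusted p = 8.38e-07). All 3 of its probe sets showed it, the others by -1.31 and -2.18. The endosulfatase genes *sulf1* and *sulf2a* were therefore called in opposite directions between the control regions, and *sulf2b* differed by 0.31 (limma adjusted p = 0.0727).

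Other members higher in Region 2 differed by less. *hs3st1l2* read 4.99, 5.26 and 5.01 in Region 1 controls and 5.62, 5.58 and 5.72 in Region 2 controls, a difference of -0.56 (SE 0.121, limma adjusted p = 0.00621). *sdc3* read 9.14, 9.16 and 9.14 against 9.60, 9.57 and 9.58, a difference of -0.44 (SE 0.0505, limma adjusted p = 0.000108). Both were apart on every array. The dim epimerase gene *glcea* read 3.19, 3.32 and 3.46 against 4.20, 3.46 and 3.84, and its difference of -0.51 (SE 0.168, limma adjusted p = 0.0448) passed with an array left out only without Region 2 control replicate 2. Without Region 2 control replicate 1, its highest array, it was -0.32 (adjusted p = 0.145).

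**Figure D3:**
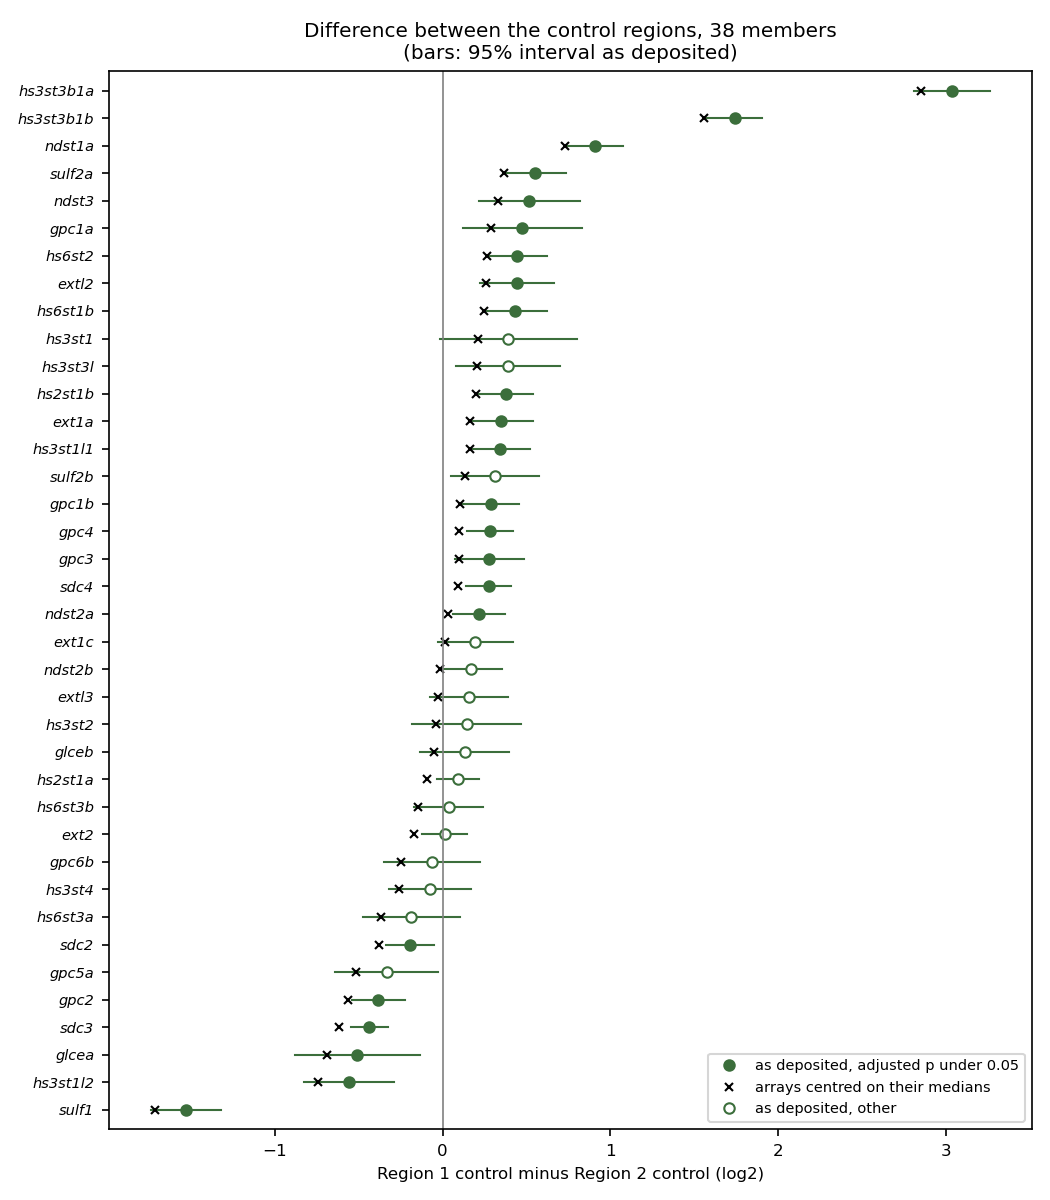
Region 1 control minus Region 2 control in log2 units (x axis) for the 38 members (y axis), sorted by the difference. Circles are the values as deposited (filled, limma adjusted p under 0.05; open, other) with 95% intervals, and crosses are the same differences after centring each array on its median. *hs3st3b1a* (3.04) and *sulf1* (-1.53) lie at the ends, and centring moves every member to the left by the same amount.

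Within families the regional patterns were mixed. Of the glypicans, *gpc1a*, *gpc1b*, *gpc3* and *gpc4* were higher in Region 1 as deposited and *gpc2* was higher in Region 2 (5.20 ± 0.0663 against 4.82 ± 0.0844, SD, n = 3). The second, dimmer *gpc3* probe set differed by only 0.12 (limma adjusted p = 0.503). Of the syndecans, *sdc4* was higher in Region 1 as deposited (a difference of 0.27, but 0.092 and no longer called after centring). Its second, dimmer probe set was higher there by 0.70 as deposited (limma adjusted p = 0.000356). *sdc2* and *sdc3* were higher in Region 2 (-0.20 and -0.44), but the second *sdc2* probe set did not pass (-0.21, limma adjusted p = 0.122). The chain polymerase *ext1a* was higher in Region 1 as deposited by 0.35 (limma adjusted p = 0.0128), but its second probe set differed by -0.016 (limma adjusted p = 0.899). *ext1c* and *ext2* differed by 0.19 and 0.012 (limma adjusted p = 0.181 and 0.911), but the second *ext1c* probe set gave 1.35 (limma adjusted p = 0.00019). The probe sets of *hs3st2* differed too, with 0.14 and -0.62 (limma adjusted p = 0.509 and 0.00144).

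Signal strength limits some of these genes. 12 of the 38 members had a mean log2 signal under 4 in every group, near the array medians, and for them a difference may be understated. *gpc1a*, *gpc1b*, *gpc6b*, *hs3st4* and *hs3st3l* were among them. *sdc2*, *sdc3*, *sdc4*, *gpc4*, *hs2st1a* and *ext2* were read well above that, and the intervals of *ext2* and *hs2st1a*, the 2-O-sulfotransferase gene needed for cell adhesion during zebrafish epiboly, bound their transgenic effect to between -0.15 and 0.23 in either region.

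**Figure D4:**
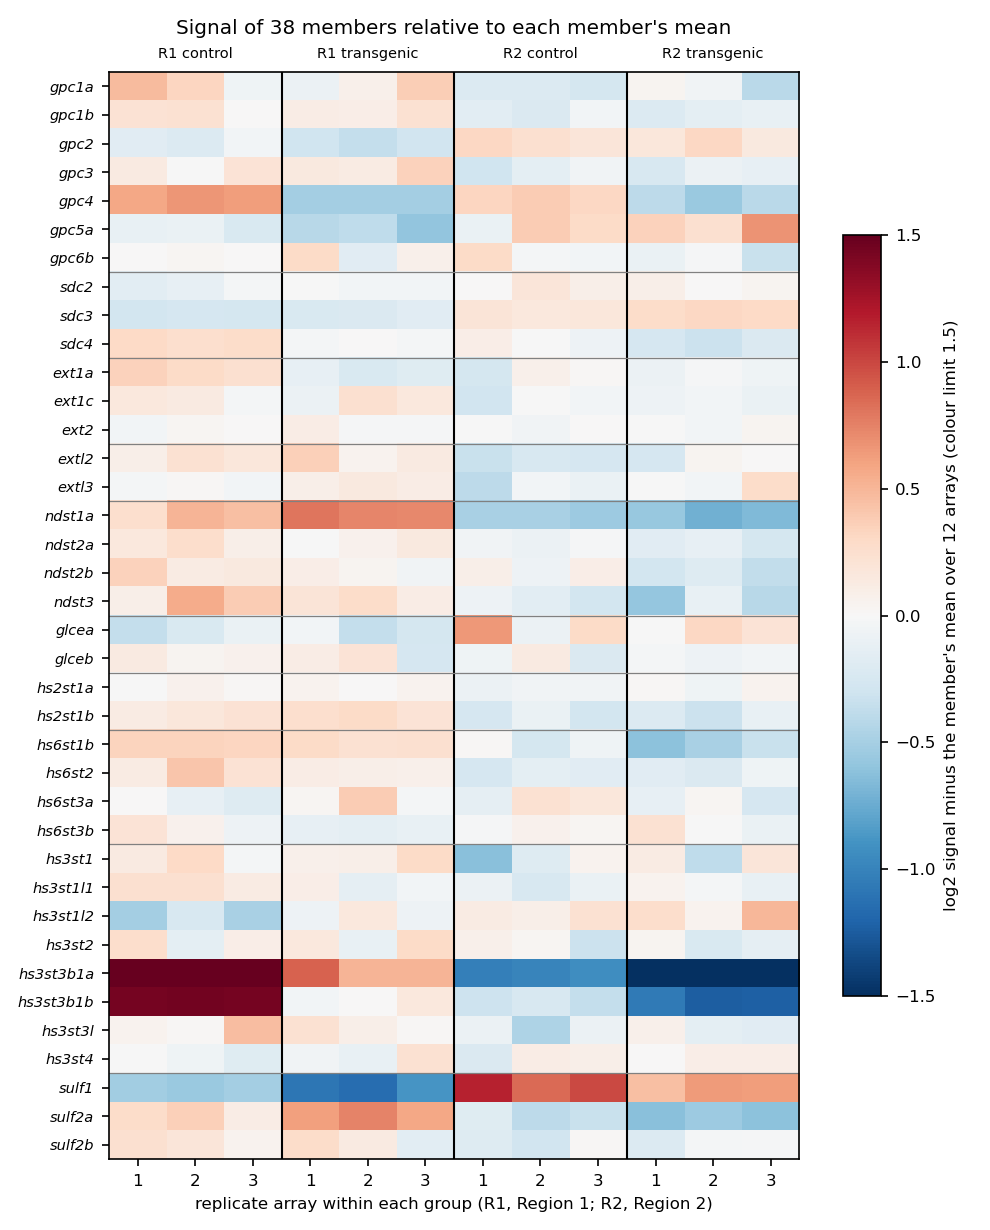
Log2 signal of the 38 members (rows, by family) on the 12 arrays (columns, 3 per group), each minus the member's own mean over the 12 arrays, with red above and blue below it and colours limited at 1.5. *hs3st3b1a* is at the red limit in the Region 1 controls and at the blue limit in the Region 2 transgenic pieces, *hs3st3b1b* is deep red in the Region 1 controls, *gpc4* is red in both control groups and blue in both transgenic groups, and *sulf1* is blue in Region 1 and red in Region 2.

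Genes around the pathway were counted from 7 lists, of which 93 of 103 genes were measured. In transgenic pieces of Region 1, 2 of the 93 fell and 0 rose (0.64% and 0.308% of all named genes), and in Region 2 none passed (0.874% fell and 0.137% rose over all named genes). Both were on the list of Fgf ligands and feedback genes, whose signals need heparan sulfate as a co-receptor. *fgf3*, a ligand of the hindbrain and pharynx, read 6.44, 6.70 and 6.41 in controls and 4.89, 4.88 and 4.92 in transgenic pieces of Region 1, a difference of -1.62 (SE 0.0935, limma adjusted p = 0.00359), against 0.10 in Region 2. *dusp6*, a feedback phosphatase induced by Fgf signalling, fell in Region 1 by 0.77 (SE 0.0775, limma adjusted p = 0.022) and differed in Region 2 by -0.41 (limma adjusted p = 0.102). The list medians were -0.071 in Region 1 and 0.028 in Region 2 over its 20 measured genes.

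None of the genes for the linkage sugars (7 of 7 measured), for precursor supply (11 of 11), for breakdown and release (12 of 13), for other carriers such as agrin (7 of 10), for chondroitin and dermatan sulfate synthesis (17 of 21) or for the planar cell polarity pathway in which Gpc4 acts (19 of 20) passed in a transgenic comparison. Their list medians ran from -0.061 to 0.095 in Region 1 and from -0.050 to 0.059 in Region 2. The effect differed between the regions for 2 of the 93, both higher in Region 2: *fgf3* (1.72, limma adjusted p = 0.000666) and *xylt1*, the enzyme that starts the chain on the core protein (0.52, limma adjusted p = 0.0454). *xylt1* read 7.93 ± 0.0351 and 7.80 ± 0.0514 in control and transgenic pieces of Region 1 and 7.47 ± 0.0441 and 7.86 ± 0.0558 in those of Region 2 (SD, n = 3), and neither within-region difference passed (limma adjusted p = 0.474 and 0.101). Between the control regions 27 of the 93 genes were higher in Region 1 and 24 in Region 2, against 26.0% and 11.7% of all named genes.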

How the data were processed

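RNA of 12 pools was measured on Affymetrix Zebrafish Gene 1.1 ST arrays. The authors made the deposited log2 values, 1 per probe set and array (75212 probe sets), from scanner files with Affymetrix Expression Console and Transcriptome Analysis Console, per the submitters' processing notes. Software versions and the way probe signals were summarized and normalized were not given in the sources used here. Scanner intensities were not analysed here.

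The platform annotation gave each probe set its gene. Symbols were brought up to date by gene identifier (27940) or by symbol and synonym (1582), and 6 were left as the platform had them. Those with several symbols (1845) or none here (43839) were tested but named no gene. The neighbours of *gpc4* came from the GRCz12tu annotation.

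R 4.3.3 with limma 3.58.1 (lmFit, eBayes) was run on the values as deposited, and Python 3.11.15 for annotation and figures. Transgenic minus control was fitted in each region on its 6 arrays, and the difference of effects and that of the control regions on all 12. P-values are two-sided and adjusted over all probe sets by the Benjamini-Hochberg method, with a threshold of 0.05 and, unlike the study's methods, no fold minimum. The number of arrays limits the precision, and the smallest p of an exact permutation test of 3 arrays against 3 would be 0.1. The fits were tested on simulated data.

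Values on every array were given for *gpc4* and *hs3st3b1b*, the other member that passed in a transgenic comparison, the 4 largest rises and the 4 largest falls between control regions among those that passed, and the 4 further members with the smallest p in a transgenic comparison. The members, the marker lists and the pathway lists were chosen with earlier results of these data known. Alternatives were the one-way ANOVA of the methods, a trended and robust prior, all 12 arrays in 1 fit, centring, quantile normalization, brighter probe sets only, probe sets of a gene averaged, a fold minimum of 2, a replicate block and each array left out. For the difference of effects, an unmoderated test of that difference took the place of the ANOVA. 9270 probe sets hold the values of an earlier one. Whether arrays with the same replicate number belong together was not stated, and the fits treat them as unpaired. Deviations of same-numbered arrays from their group means correlated at -0.0852 to 0.0792.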

Additional observations from a re-analysis of the deposited data

How the results depend on the processing

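Shares of all named genes were not counted under the alternatives, so a changed count below cannot be read as a result about the members. In Region 1, where 3 members passed, the count was 6 with a trended and robust prior and 7 with all 12 arrays in 1 fit. It was 6 with brighter probe sets only, 5 with probe sets of a gene averaged and 0 with a replicate block. Members added in some of these settings were *ext1a*, *sulf1* and *sdc4*, and *sulf2a* only with all 12 arrays in 1 fit. With an array left out, the count lay between 2 and 3. In Region 2, where 3 passed, it was 0 by the one-way ANOVA of the methods, 0 with their fold minimum of 2 and 0 with a replicate block, and 0 without any 1 of the 6 arrays. The members whose effect differs between regions, 0 as reported, became 2 with a trended and robust prior (*hs3st3b1b* and *sulf2a*), 1 with arrays centred on their medians, 2 with brighter probe sets only and 1 with identical probe sets counted once, an alternative chosen after seeing the data, and 0 to 1 with an array left out. Between the control regions, 23 became 15 by the one-way ANOVA, 13 with centring and 3 with the fold minimum, 19 with the replicate block, and 17 to 20 with an array left out. Of the other counts under alternatives, 46 stayed within 1.5 times the reported one. For single named genes, 372 values kept their direction and side of the threshold, 42 no longer passed, 21 passed only under the alternative, and none reversed. The replicates are numbered, but whether pools of the same number were prepared together was not stated. Within a region the block pairs transgenic with control pools of the same number, which held different embryos. Whether both regions of a replicate came from the same embryos was not stated either. It is therefore not known whether the replicate block fits the design. Calls lost under it say nothing on the size of an effect. Depth of signal limited the 12 dim members.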

Other observations

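Some probe sets bore symbols of the same enzymes but fell outside the rule because the platform gave them several symbols or capitals, and their values belong to no member. The one labelled both hs6st1a and HS6ST1A, for a 6-O-sulfotransferase, read 6.13, 6.16 and 6.27 in Region 1 controls and 6.27, 6.32 and 5.97 in Region 1 transgenic pieces, but 3.86, 3.89 and 3.57 in Region 2 controls and 3.86, 3.59 and 3.25 in Region 2 transgenic pieces. Its difference between the control regions was 2.41 (SE 0.153, limma adjusted p = 1.04e-06), with both transgenic differences small (-0.0021 and -0.20, limma adjusted p = 0.995 and 0.75). The one labelled both ext1c and EXT1C read 4.50 ± 0.119 in Region 1 controls and 3.58 ± 0.132 in Region 2 controls (SD, n = 3), a difference of 0.92 (limma adjusted p = 7.32e-05), nearer to the second *ext1c* probe set than to the brighter one. Those labelled NDST1 and gpc2 with GPC6L differed by 0.19 and -0.08 between the control regions (limma adjusted p = 0.16 and 0.475), and neither passed in a transgenic comparison.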
